A study of Mus musculus with 14 samples.

Results

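The genes described here are 31 genes of cholesterol and fatty acid synthesis that are listed as targets or regulators of the SREBP transcription factors. The rule lists them by name and uses no measured value: 17 enzymes of the sterol pathway, 5 genes of SREBP control and sterol transport, and 9 enzymes that make, lengthen or desaturate fatty acids. All 31 were on the array among 23152 genes, each as the median of its own 2 to 40 probesets, and all 31 were among the 17364 genes bright enough to be tested. Expression was measured in neural stem cells grown from the mouse subventricular zone, taken at postnatal day 4. There were 7 cultures (clones 1 to 7), 1 per animal, and each carried the conditional Cicflox/flox allele per the labels and was transduced with an adenovirus carrying Cre, the controls included. Clones 1 to 4 are labelled Cic+/+ and clones 5 to 7 are labelled Cic-/-, where Cic encodes capicua, a repressor that growth factor signalling relieves. Each clone was kept for 24 h in NeuroCult proliferation medium with EGF and for 24 h in that medium without EGF, which gives 14 arrays: 4 for Cic+/+ and 3 for Cic-/- in either medium.

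SREBP proteins are held in the membrane of the endoplasmic reticulum by SCAP and INSIG while sterols are plentiful. When sterols run low, SCAP escorts SREBP to the Golgi, where proteases release its active part, which enters the nucleus and raises the genes of sterol and fatty acid synthesis. SREBP-2 favours the sterol genes and SREBP-1c the fatty acid genes. Growth factors that act through AKT and mTOR are known to raise SREBP activity, and dividing cells need the products as membrane lipids, while oligodendrocytes need them for myelin.

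RefSeq promoters (GRCm38.p6) were matched for 24 of the 31 genes. They are shown because SREBP works beside the general factors NF-Y and Sp1, and because capicua binds a short octamer, so that the letters of both systems can be seen beside the expression values. The windows below end at the base before the listed start of the gene, and capitals mark matches to the motifs that follow, on either strand. All promoters were searched over the same 250 bases, and Lss is printed over the first 210 of them because its annotated gene span begins there. Hmgcs1 (chr13:119690101-119690350, plus strand), Lss (chr10:76531355-76531564, plus strand) and Msmo1 (chr8:64733579-64733828, minus strand) stand for the sterol enzymes. Fads2 (chr19:10101504-10101753, minus strand) stands for the desaturases, and Elovl6 (chr3:129532136-129532385, plus strand, in the noncoding RNA gene Gm35986) held the only capicua octamer.
Hmgcs1: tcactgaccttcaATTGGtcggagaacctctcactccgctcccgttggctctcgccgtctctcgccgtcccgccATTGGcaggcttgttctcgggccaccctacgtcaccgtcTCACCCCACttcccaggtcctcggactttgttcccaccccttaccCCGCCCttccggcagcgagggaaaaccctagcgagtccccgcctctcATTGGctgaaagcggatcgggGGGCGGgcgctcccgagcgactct
Lss: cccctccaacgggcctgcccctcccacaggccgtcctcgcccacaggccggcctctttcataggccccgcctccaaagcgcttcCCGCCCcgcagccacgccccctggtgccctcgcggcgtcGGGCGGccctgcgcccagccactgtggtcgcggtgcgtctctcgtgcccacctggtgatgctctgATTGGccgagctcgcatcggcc
Msmo1: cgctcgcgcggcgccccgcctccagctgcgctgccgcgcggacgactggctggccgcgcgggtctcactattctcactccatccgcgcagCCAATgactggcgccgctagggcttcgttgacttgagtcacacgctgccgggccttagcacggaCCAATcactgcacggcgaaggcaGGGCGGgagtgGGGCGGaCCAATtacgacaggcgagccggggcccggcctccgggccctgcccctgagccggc
Fads2: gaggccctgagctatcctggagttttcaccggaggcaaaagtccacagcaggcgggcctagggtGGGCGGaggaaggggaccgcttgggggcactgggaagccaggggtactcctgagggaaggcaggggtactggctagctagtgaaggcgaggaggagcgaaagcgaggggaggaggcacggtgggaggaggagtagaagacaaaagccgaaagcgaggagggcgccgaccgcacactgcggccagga
Elovl6: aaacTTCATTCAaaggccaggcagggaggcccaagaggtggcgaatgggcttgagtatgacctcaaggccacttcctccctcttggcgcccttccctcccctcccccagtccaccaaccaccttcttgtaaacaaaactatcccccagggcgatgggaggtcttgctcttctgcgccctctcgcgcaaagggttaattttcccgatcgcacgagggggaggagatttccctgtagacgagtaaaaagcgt

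The motifs searched in the 250 bases before each start were TCACNCCAC for the sterol regulatory element, CCAAT for NF-Y, GGGCGG for Sp1, CACGTG for the E-box, and TGAATGAA and TGAATGGA for capicua. CCAAT was found in 19 of 24 genes, against 37.5% of all 27025 genes with a promoter, and GGGCGG in 20 of 24, against 35.4%. Both were in a single promoter for 17 of 24 genes, against 12.5% of all genes. By role, CCAAT was found in 14 of 14 sterol enzymes, in 3 of 4 genes of SREBP control and sterol transport, and in 2 of 6 fatty acid enzymes, namely Acss2 and Fasn. The sterol element in its strict spelling was found only in Hmgcs1, 1 of 24, against 1.22% of all genes. CACGTG was found in 5 of 24 (Hsd17b7, Sc5d, Dhcr7, Insig1 and Scap), against 6.86%. TGAATGAA was found in 1 of 24, Elovl6, against 1.25%, and TGAATGGA in 0 of 24, against 1.18%. The median GC content of the members' promoters was 63%, against 52.4% over all 32851 promoters, and the part of base composition in these shares was not tested. A match describes letters in this window and is not a measured binding site.

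**Figure D1:**
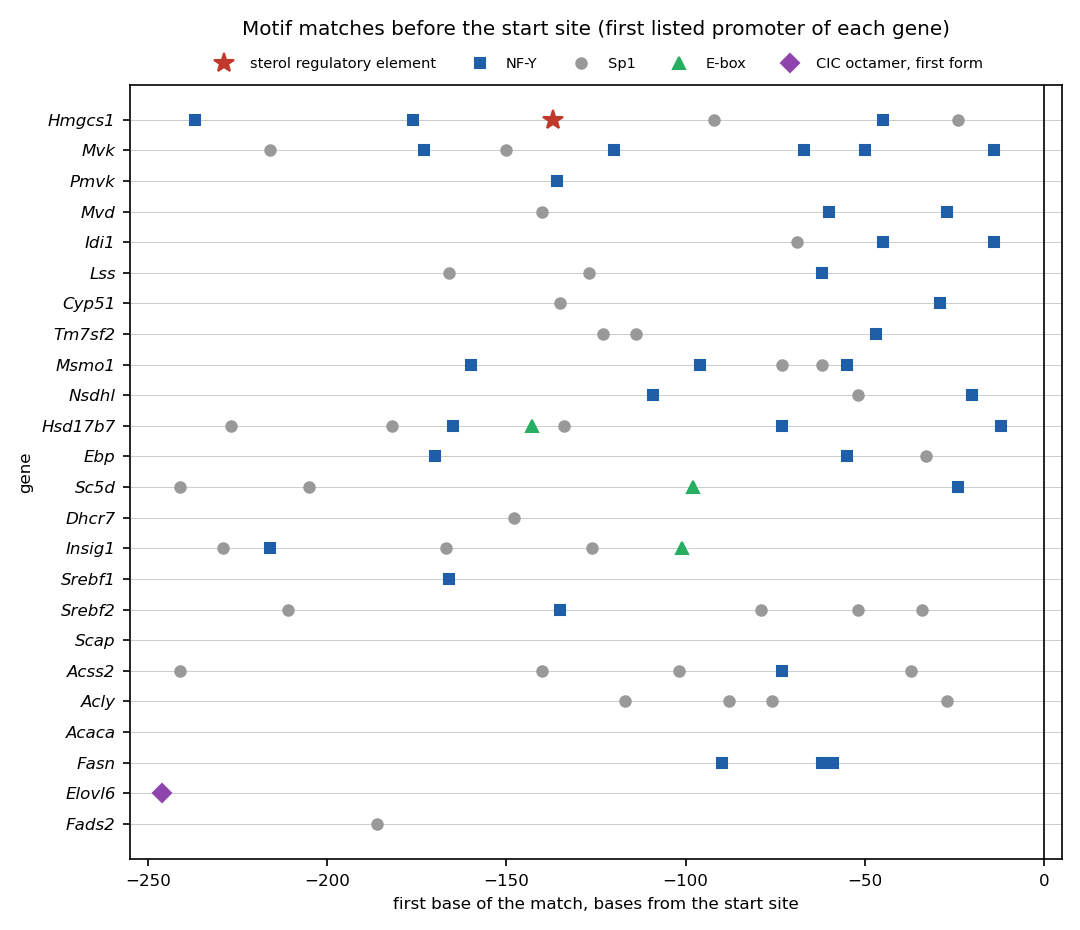
Position of each motif match in the bases before the start site (x axis, bases) for the 24 genes with a RefSeq promoter (y axis); the symbols mark the motif. Only the first listed promoter of a gene is drawn, so the CCAAT matches of Dhcr7 in another promoter are not seen. CCAAT squares lie in the rows of nearly all sterol enzymes, the star of the strict sterol element lies in the Hmgcs1 row alone, and the capicua diamond lies in the Elovl6 row.

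Array medians lay between 6.49 and 6.54 on the log2 scale, so the arrays were alike in scale. Cic was lower in the Cic-/- arrays, by -1.97 ± 0.15 with EGF and -2.16 ± 0.15 without it (log2 change ± SE, limma, adjusted p = 2.18e-05 and 9.46e-06). Neural stem cell markers, of which 11 of 12 were measured and tested, had a mean level of 9.80 to 10.39 per array. Within that list Prom1 lay at 4.25 to 5.57 and Gfap at 5.87 to 9.72. Microglia markers lay at 4.81 to 5.28 and endothelial and pericyte markers at 4.70 to 5.31, near the dim limit of 4.40. Oligodendrocyte progenitor markers lay at 8.85 to 10.54 and astrocyte markers at 8.25 to 9.89. These ranges overlap that of the stem cell markers, so the levels do not tell stem cells from related neural types. Clone 4 stood apart by sex, with Xist at 4.73 and 3.83 against 11.96 to 12.57 in the other clones. Clone 5 stood apart by mitosis genes, with a mean level of 7.70 with EGF and 7.54 without it against 8.72 to 9.80 in the other arrays. Mitosis genes also had lower values in Cic-/-, all 14 measured, in both media. With EGF the median was -0.94, with 1 called by limma and 7 (50%) at an unadjusted p under 0.05. Over all genes those shares were 0.317% and 10.6%. Without EGF the median was -0.49, with 0 called and 2 (14.3%) at that p, against 0.553% and 10.8%. With EGF clones 6 and 7 (8.90 and 8.72) also lay below the Cic+/+ arrays (9.05 to 9.80). Without EGF clones 6 and 7 read 8.95 and 9.10, beside 9.01 to 9.08 in Cic+/+. The part of the mitosis genes in the genotype values of the lipid genes was not tested. In these bulk cultures, fewer cells of a type and less RNA per cell cannot be told apart. Results are therefore given by clone. A value without a clone is given where leaving it out moved the value by over 1.5 times or turned its sign. This holds for the medians of the 31 and, in each comparison, for the members printed by smallest p in it.

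**Figure D2:**
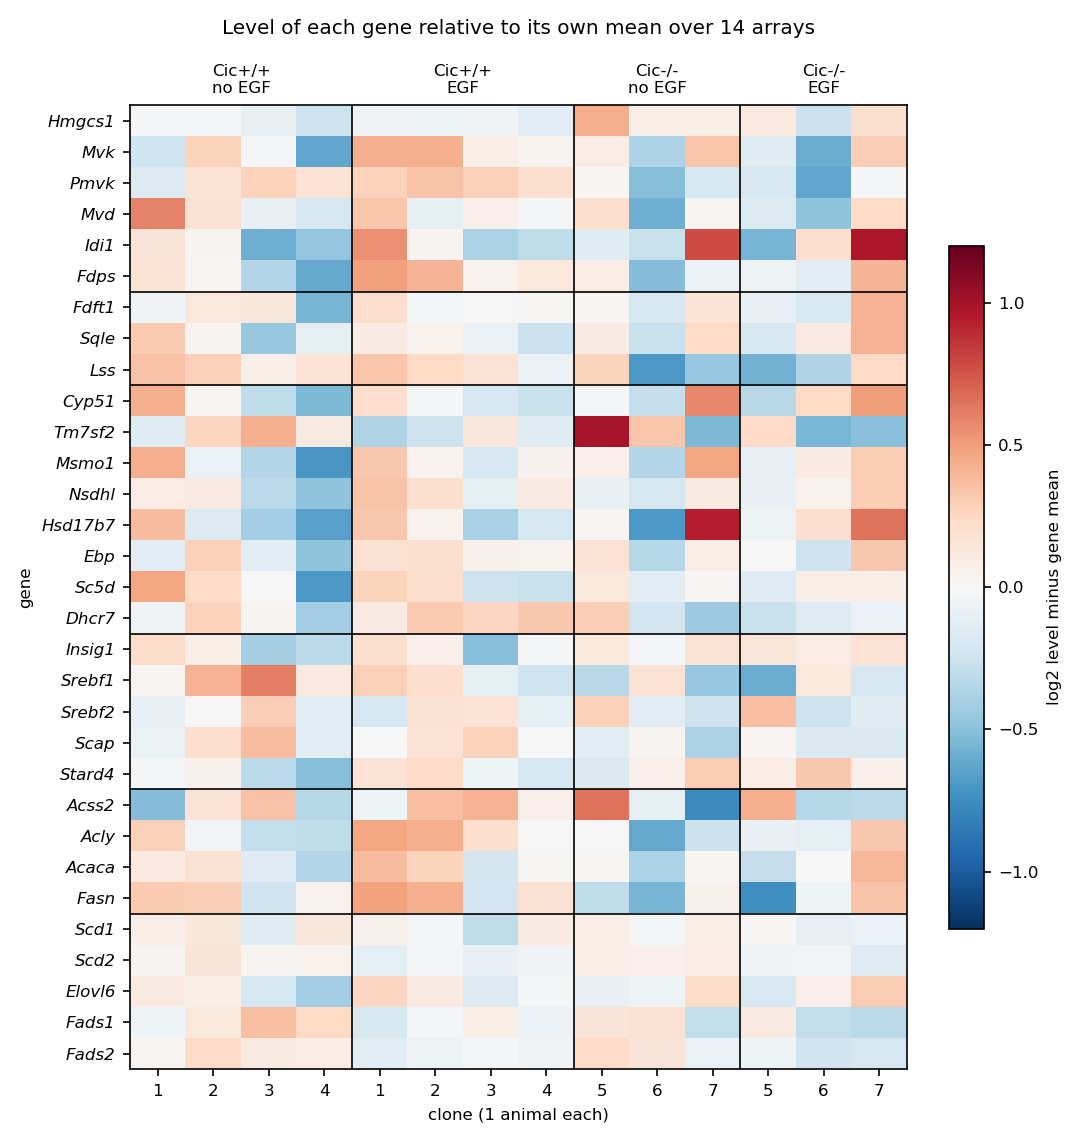
Log2 level of each of the 31 genes minus its own mean over the 14 arrays (colour), with genes in rows by role and arrays in columns by group and clone. Most sterol enzyme rows are blue together in clone 4 without EGF and red together in clone 7 with EGF, while the rows of Scd1, Scd2 and Fads2 are nearly white.

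The first comparison asked whether loss of Cic moves lipid synthesis genes. With EGF, no gene of the 31 passed limma's adjusted p under 0.05, and 2 had an unadjusted p under 0.05, namely Pmvk and Dhcr7. That is 6.45% of the 31, against 10.6% of all genes tested, and calls at the adjusted threshold made up 0.317% of all genes (55 of 17364). The median change of the 31 genes was -0.074, against 0.017 over all genes, and single changes ran from -0.55 to 0.33. The median was -0.03 without clone 2 or clone 6 and -0.15 without clone 7. The median size of a change was 0.16 and the median SE 0.20, and the 95% intervals of the 31 genes ran from -0.94 to 1.04 in all, so differences of the median size were not detectable and a missed threshold does not show equal levels.

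Pmvk, the phosphomevalonate kinase, had the smallest p. With EGF the Cic+/+ arrays of clones 1 to 4 read 8.28, 8.35, 8.29 and 8.20, and the Cic-/- arrays of clones 5 to 7 read 7.82, 7.38 and 7.99. Every Cic-/- array lay below every Cic+/+ array. The change was -0.55 ± 0.17 (log2, n = 3 against 4, limma, adjusted p = 0.24), a difference in the direction of lower levels that did not pass, and 10 of 10 probesets pointed that way. Without EGF the levels were 7.84, 8.17, 8.28 and 8.18 against 8.03, 7.50 and 7.80, and the groups overlapped (change -0.34 ± 0.17, adjusted p = 0.516). That change ran from -0.466 to -0.2 when each clone was left out.

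Dhcr7, the reductase of the last step to cholesterol, was the other gene whose genotypes did not overlap with EGF. The Cic+/+ arrays read 10.62, 10.83, 10.77 and 10.84, and the Cic-/- arrays 10.25, 10.36 and 10.44. The change was -0.42 ± 0.19 (limma, adjusted p = 0.444), with 12 of 15 probesets lower. Without EGF the change was -0.09 ± 0.19, and the levels of 10.47, 10.79, 10.55 and 10.10 overlapped those of 10.81, 10.28 and 10.08. The change without EGF ran from -0.301 to 0.068 when each clone was left out. In all, 2 of 31 genes had genotypes that did not overlap with EGF, where 11.7% of all genes did not overlap, and 1 of 31 without EGF, where 9.38% did not.

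Lss, the lanosterol synthase, came next by p. In medium with EGF, Lss stood at 10.22, 10.13, 10.06 and 9.82 in Cic+/+ against 9.32, 9.53 and 10.13 in Cic-/- (change -0.40 ± 0.23, limma, adjusted p = 0.563). Without EGF it was 10.24, 10.17, 9.97 and 10.05 against 10.15, 9.20 and 9.43 (change -0.51 ± 0.23, adjusted p = 0.431). A single Cic-/- clone overlapped the Cic+/+ range in each medium, clone 7 with EGF and clone 5 without it. Of 22 probesets, 20 were lower with EGF and 17 without it. With EGF the change was -0.23 without clone 5 and -0.63 without clone 7 (adjusted p = 0.704 and 0.316). Without EGF it was -0.79 without clone 5 and -0.32 without clone 6 (adjusted p = 0.0973 and 0.808).

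Without EGF, again 0 of 31 genes passed limma's threshold, where 0.553% of all genes did (96 of 17364). Srebf1 and Lss had an unadjusted p under 0.05, which is 6.45% of the 31 against 10.8% of all genes. The median change was 0.014, against -0.003 over all genes, and the changes ran from -0.51 to 0.33. That median had no steady sign: it was -0.060 without clone 5, -0.037 without clone 4 and 0.094 without clone 2, and lay between 0.002 and 0.065 without each of the other 4 clones. Srebf1 encodes the SREBP-1 factors. It read 8.77, 9.16, 9.35 and 8.86 in the Cic+/+ arrays against 8.41, 8.92 and 8.29 in the Cic-/- arrays, with clone 6 inside the Cic+/+ range. The change was -0.50 ± 0.22 (limma, adjusted p = 0.431), and with EGF it was -0.26 ± 0.22 (adjusted p = 0.724). The change with EGF ran from -0.435 to -0.074 when each clone was left out. Probesets of Srebf1 were lower in Cic-/- for 24 of 26 without EGF and 26 of 26 with it, and they share the same arrays, so their number adds no replicates.

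Hmgcs1, which makes the HMG-CoA that feeds the pathway, was the only one of the 31 that was higher in every Cic-/- array without EGF. The Cic+/+ arrays read 12.24, 12.24, 12.16 and 12, and the Cic-/- arrays 12.69, 12.32 and 12.33. The highest Cic+/+ array and the lowest Cic-/- array lay closer together than the highest and lowest arrays of either group. The change was 0.29 ± 0.14 (limma, adjusted p = 0.495), with 10 of 10 probesets higher, and 0.17 without clone 5 (adjusted p = 0.736). With EGF it was 0.09 ± 0.14, and ran from 0.001 to 0.224 when each clone was left out. Its promoter is the one shown above with the strict sterol element.

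The other mevalonate enzymes gave genotype changes on both sides of 0. Mvk, the mevalonate kinase, was at -0.39 ± 0.25 with EGF and 0.17 ± 0.25 without it. Its probesets went against the value without EGF, since 12 of 15 were lower in Cic-/-. Mvd, the decarboxylase, was at -0.21 ± 0.24 and -0.24 ± 0.24. Idi1, the isopentenyl diphosphate isomerase, was at 0.23 ± 0.35 and 0.33 ± 0.35 and is read by 2 probesets only. Fdps, the farnesyl diphosphate synthase, was at -0.20 ± 0.22 and 0.02 ± 0.22. None of these intervals left out 0.

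Of the squalene enzymes, Fdft1, the squalene synthase, was at -0.007 ± 0.19 with EGF and 0.08 ± 0.19 without it, and Sqle, the squalene epoxidase, at 0.16 ± 0.20 and 0.07 ± 0.20. Without EGF, 13 of 13 Sqle probesets were higher in Cic-/-, by 0.07 to 0.88, so the Sqle value lies at the low end of its probesets. The lanosterol to cholesterol steps gave 4 positive and 4 negative values with EGF and 7 positive and 1 negative without it. Among them Cyp51, the lanosterol demethylase, was at 0.21 ± 0.26 and 0.19 ± 0.26, and Msmo1, the methylsterol oxidase, at 0.05 ± 0.25 and 0.24 ± 0.25. Hsd17b7, the sterol ketone reductase, had the highest value of the 31 with EGF, 0.33 ± 0.34, and 0.30 ± 0.34 without it. Nsdhl, the sterol dehydrogenase, was at -0.05 ± 0.18 and 0.09 ± 0.18, and Ebp, the sterol isomerase, at -0.10 ± 0.19 and 0.09 ± 0.19. Sc5d, the lathosterol desaturase, lay at 0.009 ± 0.23 and 0.002 ± 0.23, and Tm7sf2, a sterol reductase, at -0.12 ± 0.30 and 0.10 ± 0.30.

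Among the control genes, Srebf2, which encodes the main factor of the sterol branch, was at -0.02 ± 0.19 with EGF and -0.05 ± 0.19 without it. Scap was at -0.21 ± 0.16 and -0.25 ± 0.16, and Insig1, which retains the SCAP complex, at 0.20 ± 0.19 and 0.19 ± 0.19. Stard4, a carrier of sterol between membranes, was at 0.12 ± 0.18 and 0.27 ± 0.18, and its probesets were higher for 11 of 11 without EGF.

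The fatty acid synthesis enzymes lay on the negative side with EGF, 4 of 4, with a median of -0.25. Fasn, the fatty acid synthase, had the largest difference of these, -0.37 ± 0.25 with EGF and -0.38 ± 0.25 without it (limma, adjusted p = 0.651 and 0.644). Fasn read 11.75, 11.70, 11.04 and 11.45 in Cic+/+ with EGF against 10.53, 11.22 and 11.61 in Cic-/-. Clone 3 lay below clones 6 and 7, so the groups overlapped, although 37 of 40 Fasn probesets were lower with EGF and 40 of 40 without it. Without clone 5, the change with EGF was -0.07, so the value with EGF rests on that clone. Acly, the citrate lyase that supplies acetyl-CoA, was at -0.23 ± 0.20 and -0.20 ± 0.20, Acaca, the acetyl-CoA carboxylase, at -0.07 ± 0.20 in both media, and Acss2, the acetyl-CoA synthetase, at -0.27 ± 0.31 and 0.01 ± 0.31.

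The desaturases and the elongase had genotype differences within 0.15 of 0. Scd1 and Scd2, which place a double bond in saturated fatty acids, were each at -0.01 with EGF and at -0.01 and 0.01 without it, with SE of 0.13 and 0.11. Fads1 and Fads2, which act on polyunsaturated fatty acids, were at -0.12 ± 0.16 and -0.10 ± 0.12 with EGF, and at -0.15 ± 0.16 and -0.007 ± 0.12 without it. Elovl6, the elongase whose promoter held a capicua octamer, was at 0.02 ± 0.17 and 0.14 ± 0.17. For Scd2 the 95% interval with EGF ran from -0.24 to 0.22, which bounds a genotype difference more closely than for any other of the 31.

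**Figure D3:**
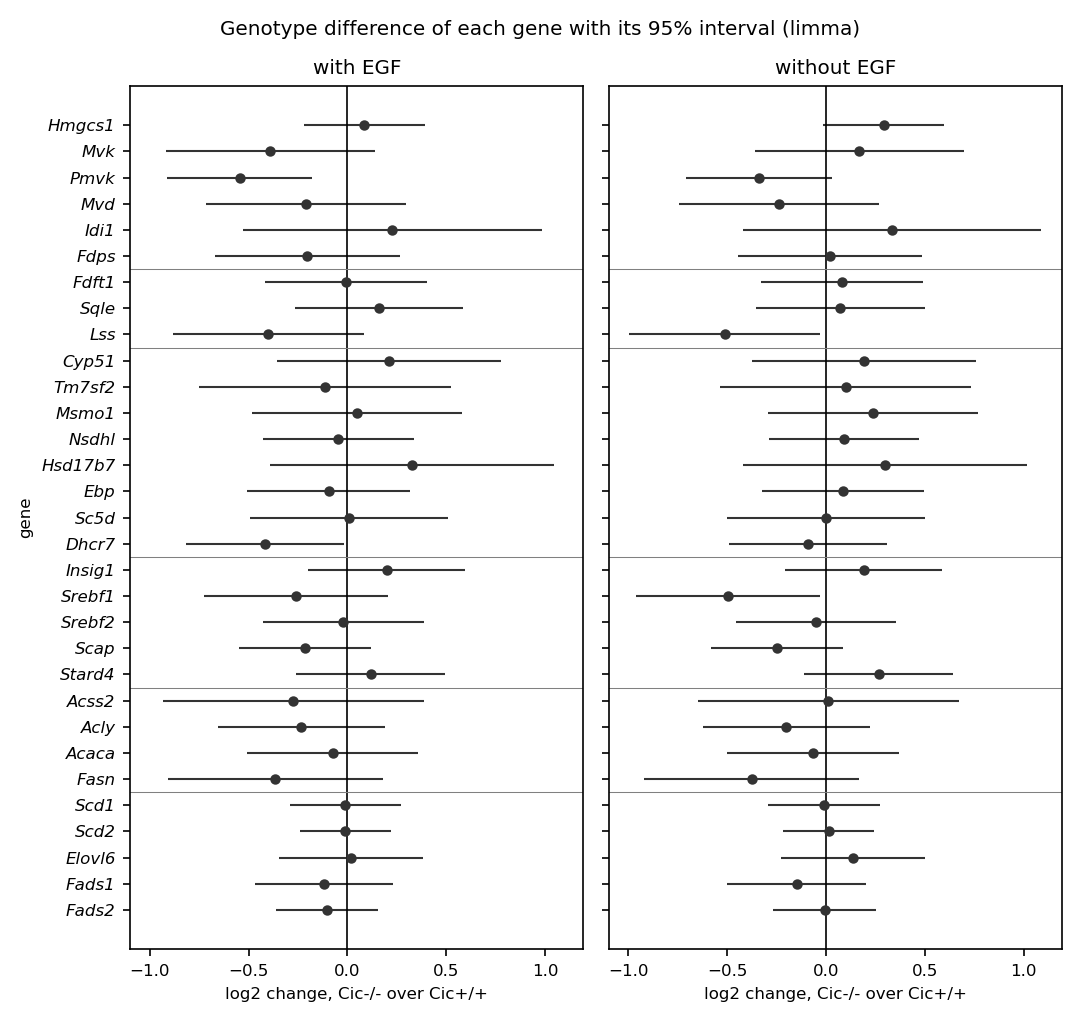
Log2 change in Cic-/- over Cic+/+ (x axis) of each gene (y axis), with EGF on the left and without EGF on the right; points are limma estimates from 3 against 4 arrays and bars are 95% intervals. Nearly every bar crosses 0, and those that do not (Pmvk and Dhcr7 with EGF, Lss and Srebf1 without it) belong to genes that did not pass the adjusted threshold.

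The second comparison asked what EGF does to these genes within a genotype. It uses some of the same arrays as the genotype comparisons, so the values are set side by side and not counted together. In Cic+/+, 0 of 31 genes passed limma's threshold without a block, where 0.898% of all genes did (156 of 17364). Fdps alone had an unadjusted p under 0.05, 3.23% of the 31 against 12.5% of all genes. The median change of the 31 was 0.11, against -0.002 over all genes, with 21 values above 0 and 10 below. Without clone 4 the median was 0.054.

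Fdps makes the farnesyl diphosphate from which squalene and prenyl groups are built. Clones 1 to 4 read 12.11, 12.02, 11.66 and 11.74 with EGF, and 11.78, 11.64, 11.26 and 11.00 in the same clones without it. The difference was above 0 in 4 of 4 clones, at 0.33, 0.38, 0.40 and 0.74, although the ranges of the 2 media overlapped. The change was 0.46 ± 0.20 (limma, adjusted p = 0.358), which is 1.38-fold. With the clone as a fixed block it was 0.46 ± 0.14 (adjusted p = 0.0818), and with a variance prior that also follows the level of the gene it was 0.46 ± 0.11 (adjusted p = 0.0168). In Cic-/- clones 5 to 7 the differences were -0.15, 0.39 and 0.48.

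Acly was second by p in Cic+/+. Its level was 11.29, 11.25, 11.02 and 10.81 with EGF, and 11.10, 10.78, 10.52 and 10.51 without it. It was higher with EGF in 4 of 4 clones (change 0.37 ± 0.18, limma, adjusted p = 0.439). In Cic-/- it was 10.73, 10.71 and 11.14 with EGF against 10.81, 10.20 and 10.56 without it, higher in clones 6 and 7 and lower in clone 5 (change 0.33 ± 0.21, adjusted p = 0.68). Without clone 5 that change was 0.54, and without clone 7 it was 0.21. Probesets of Acly were higher with EGF for 27 of 28 in Cic+/+ and 26 of 28 in Cic-/-.

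Mvk came next in Cic+/+, with levels of 8.64, 8.63, 8.28 and 8.24 with EGF and 7.96, 8.47, 8.19 and 7.58 without it. Its differences of 0.68, 0.16, 0.09 and 0.66 were all above 0 and differed widely between clones (change 0.40 ± 0.23, limma, adjusted p = 0.517).

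In Cic-/-, 0 of 31 genes passed limma's threshold, where 0.19% of all genes did (33 of 17364), and 0 of 31 had an unadjusted p under 0.05, against 9.8% of all genes. The median change was 0.038, against 0.006 over all genes, and its sign depended on the clone: it was 0.127 without clone 5, -0.056 without clone 6 and -0.038 without clone 7. Fads2 had the smallest p. Clones 5 to 7 read 12.64, 12.45 and 12.49 with EGF, and 12.92, 12.85 and 12.61 without it. Clones 6 and 7 with EGF lay below every array without it, while clone 5 with EGF lay above clone 7 without it, so the media overlapped. The change was -0.27 ± 0.13 (adjusted p = 0.523). Tm7sf2 followed, at 9.77, 8.99 and 9.04 with EGF and 10.53, 9.87 and 9.0 without it, lower in clones 5 and 6 and near 0 in clone 7 (change -0.53 ± 0.32, adjusted p = 0.662; -0.81 without clone 7).

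The sign of the EGF difference set the desaturases apart by description. Scd1, Scd2, Fads1 and Fads2 were lower with EGF in 7 of 7 clones, and no other of the 31 genes had the same sign in every clone. Those 4 of 31 genes stand beside 13.5% of all genes with the same sign in 7 clones, so the share is near the background. They are all 4 desaturases of fatty acids on the list. All 28 differences lay between -0.48 and -0.03, which is 1.39-fold to 1.02-fold lower.

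Scd2 in Cic+/+ was at 13.04, 13.13, 13.06 and 13.11 with EGF and at 13.18, 13.31, 13.18 and 13.19 without it. In Cic-/- clones it was at 13.11, 13.12 and 13.0 with EGF and at 13.23, 13.21 and 13.24 without it. Within each genotype every array with EGF lay below every array without it. The share of all genes whose media do not overlap is not given here, so this has no background beside it. The highest probeset value on any array was 14.3, so Scd2 lies near the top of the measured scale. The residual SD of Scd2 was 0.052, at the 0.023 percentile of all genes tested. The change of -0.13 ± 0.10 in Cic+/+ and of -0.15 ± 0.12 in Cic-/- did not pass (limma without a block, adjusted p = 0.649 and 0.736). That SE draws on the spread of all genes and does not pair the arrays of a clone, so it is not the spread of the differences within clones. Those differences had an SD of 0.044 in Cic+/+ and 0.079 in Cic-/-. The same limit holds for the other EGF changes given without a block.

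Fads2 in Cic+/+ was at 12.56, 12.63, 12.67 and 12.65 with EGF and at 12.72, 12.92, 12.80 and 12.78 without it. The media again did not overlap, also without a background share (change -0.18 ± 0.11, limma, adjusted p = 0.57). Fads1 was lower by 0.03 to 0.48, with changes of -0.22 ± 0.15 in Cic+/+ and -0.19 ± 0.17 in Cic-/-. Scd1 was lower by 0.03 to 0.16, with changes of -0.10 ± 0.12 and -0.10 ± 0.14. The probesets pointed the same way for 10 of 10 of Fads2 and 5 of 5 of Scd2 in each genotype. For Fads1 they were lower for 14 of 14 in Cic+/+ and 13 of 14 in Cic-/-, and for Scd1 for 5 of 5 and 3 of 5.

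**Figure D4:**
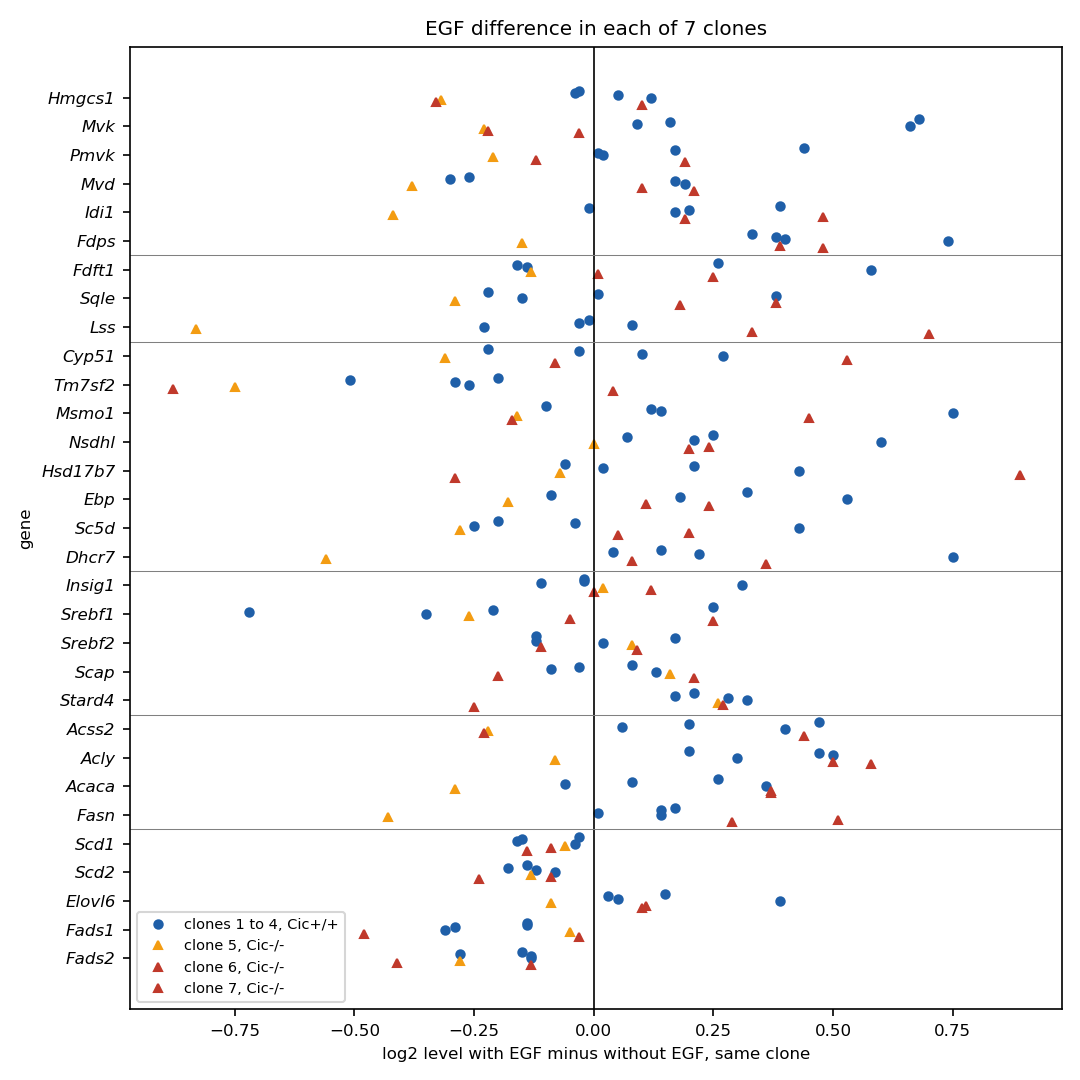
Log2 level with EGF minus the level without EGF in the same clone (x axis) for each gene (y axis); circles are the 4 Cic+/+ clones and triangles the 3 Cic-/- clones, with clone 5 in orange. All 7 points of Scd1, Scd2, Fads1 and Fads2 lie left of 0, and the orange triangle lies at or left of 0 for all 17 sterol enzymes.

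An average of the EGF effect over both genotypes, with 7 clones behind it, was added after these signs had been seen, so it is not independent of them. Without a block, 0 of 31 genes passed, where 3.91% of all genes did, and 3 had an unadjusted p under 0.05 (Fads2, Acly and Fdps), 9.68% of the 31 against 18% of all genes. With the clone as a fixed block, 1 of 31 passed, where 12.1% of all genes did. That gene was Tm7sf2, which fell with EGF by 0.42 ± 0.12 on the log2 scale (limma, adjusted p = 0.0428). With the fixed block and a prior that follows the level, 6 of 31 passed, where 14.5% of all genes did. In that fit Fdps (0.35 ± 0.08, adjusted p = 0.0101) and Acly (0.35 ± 0.09, adjusted p = 0.0137) rose. Fads2 (-0.22 ± 0.05, adjusted p = 0.00893), Tm7sf2 (-0.42 ± 0.11, adjusted p = 0.0163), Scd2 (-0.14 ± 0.04, adjusted p = 0.0403) and Fads1 (-0.20 ± 0.06, adjusted p = 0.0489) fell, and Scd1 did not pass (-0.10 ± 0.05, adjusted p = 0.235). The calls of these genes thus depend on the fit. Without a block and with the fixed block alone, their share lay below that of all genes. With the prior that follows the level, it was near that of all genes.

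Tm7sf2 did not go with the other sterol enzymes. In Cic+/+ it was at 9.18, 9.29, 9.67 and 9.39 with EGF and at 9.38, 9.80, 9.97 and 9.65 without it, lower in 4 of 4 clones, and clone 7 was the single clone above 0 in either genotype, at 0.04. Its probesets were lower with EGF for 14 of 17 in Cic+/+ and 15 of 17 in Cic-/-. Above 0 in 6 of 7 clones were Fdps, Nsdhl, Dhcr7, Stard4, Acly, Fasn and Elovl6, where the clone below 0 was clone 5 for all but Stard4, whose lower clone was clone 7. Stard4 differed by 0.17 to 0.32 in the other 6 clones (change 0.24 ± 0.16 in Cic+/+ and 0.09 ± 0.19 in Cic-/-). The share of all genes above 0 in 6 of 7 clones is not given here, so the genes named for that sign have no background beside them. The regulators were spread around 0, with Srebf1 at -0.26 ± 0.20 and -0.02 ± 0.23, Srebf2 at -0.01 ± 0.18 and 0.02 ± 0.20, Scap at 0.02 ± 0.15 and 0.06 ± 0.17, and Insig1 at 0.04 ± 0.17 and 0.05 ± 0.20.

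The difference between the EGF effects of the genotypes passed for 0 of 31 genes, where 0.00576% of all genes passed (1 of 17364), and 0 of 31 had an unadjusted p under 0.05, against 2.86% of all genes. The median difference was -0.033, against 0.011 over all genes, and ran from -0.119 (without clone 7) to -0.007 (without clone 4) when each clone was left out. Mvk had the smallest p. It was higher with EGF in 4 of 4 Cic+/+ clones and lower in 3 of 3 Cic-/- clones, where the levels were 8.06, 7.61 and 8.50 with EGF and 8.29, 7.83 and 8.53 without it. The difference was -0.56 ± 0.35 (limma, adjusted p = 1), with a 95% interval from -1.31 to 0.19. The probesets of Mvk differed from its median in Cic-/-, where 10 of 15 were higher with EGF. Dhcr7 (-0.33 ± 0.26) and Hmgcs1 (-0.21 ± 0.20) followed, both with an adjusted p of 1. The Dhcr7 value was -0.07 without clone 5, -0.17 without clone 4 and -0.53 without clone 7, and the Hmgcs1 value -0.14 without clone 5, -0.13 without clone 6 and -0.35 without clone 7. The Hmgcs1 differences were -0.03, -0.04, 0.05 and 0.12 in Cic+/+ and -0.32, -0.33 and 0.10 in Cic-/-, and those of Dhcr7 were 0.14, 0.04, 0.22 and 0.75 against -0.56, 0.08 and 0.36.

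The sterol enzymes varied together, both in their levels over the arrays and in their EGF differences within clones. Over the 14 arrays, the median Pearson r over the 136 pairs of the 17 sterol enzymes was 0.48, against 0.00 over all pairs of genes tested. It was 0.57 for deviations from the group mean and 0.49 for the EGF differences of 7 clones. Leaving out each clone in turn gave 0.43 to 0.51 for the levels. The arrays of a clone share an animal, so these points are fewer than 14 independent ones. Against the mean of the other sterol enzymes, Fdps and Ebp had an r of 0.86, Nsdhl 0.81 and Fdft1 0.80, while Pmvk had 0.22, Dhcr7 0.39 and Tm7sf2 -0.38. Among the fatty acid genes, Acaca had an r of 0.90 with the sterol mean, Elovl6 0.80, Acly 0.76 and Fasn 0.62, while Acss2 had -0.03, Fads2 -0.22 and Fads1 -0.54. The regulators Srebf1, Srebf2 and Scap lay at -0.12, -0.07 and -0.15, and Insig1, itself an SREBP target, at 0.57.

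The clones differed in the level of the whole sterol branch. The median of the 17 enzymes relative to their own means was lowest in clone 4 without EGF, at -0.49, where 3 of 17 were above their mean, and highest in clone 7 with EGF, at 0.30, where 14 of 17 were above it. Clone 6 was low in both media, at -0.16 with EGF and -0.29 without it, and clone 1 was high in both, at 0.27 and 0.16. The median share of the residual held by the mean of the 2 arrays of a clone was 80.7% for the 31 genes, against 67.1% over all genes. Unrelated arrays would also give a sizeable share by this measure, so it is not a correlation and is read only beside all genes. Over all genes, the random block for clone had a correlation of 0.348. Group membership held a median of 24.6% of the variance of the 31 genes and 15.4% of that of the sterol enzymes, against 29.6% over all genes. With 4 groups over 14 arrays, such a share is sizeable even without a group effect. It is therefore not read as variance explained by genotype or EGF.

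The response of the sterol branch to EGF differed by clone as well. In clone 5 all 17 sterol enzymes and all 9 fatty acid enzymes were lower with EGF, 27 of all 31 genes, with a sterol median of -0.28. Nsdhl was lower there by less than the rounding of 0.01. In clone 4, 14 of 17 sterol enzymes were higher with EGF (median 0.43), in clone 3 also 14 (median 0.10), and in clones 6 and 7 13 each (medians 0.20 and 0.19), while clones 1 and 2 had 8 each (medians -0.01 and -0.007). Over all genes the median EGF difference of every clone lay between -0.025 and 0.017. Clone 5 was the clone with the low mitosis genes named above, and clone 4 the clone that stood apart by sex. The part of either in the sterol levels was not tested, and as a description over 14 arrays the mean of the sterol enzymes had an r of -0.01 with mitosis genes, -0.28 with oligodendrocyte and myelin markers and -0.29 with oligodendrocyte progenitor markers. Lss shows the spread, with EGF differences of -0.83, 0.33 and 0.70 in clones 5 to 7 against -0.23 to 0.08 in clones 1 to 4.

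**Figure D5:**
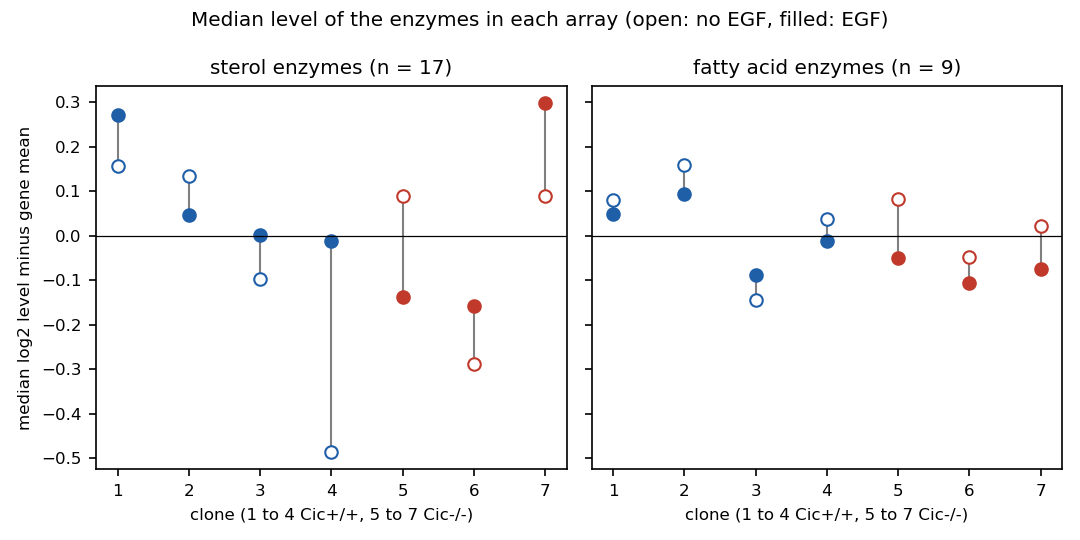
Median of the log2 levels of the 17 sterol enzymes (left) and the 9 fatty acid enzymes (right), each relative to its own mean over the arrays (y axis), by clone (x axis); open circles are without EGF, filled circles with EGF, blue Cic+/+ and red Cic-/-. In the sterol panel clone 5 lies at 0.09 without EGF and -0.14 with it, and clone 2 is also lower with EGF, while the other 5 clones lie higher with EGF. These are medians of levels. In clone 1 the median of the enzymes' own EGF differences was -0.013, with 8 higher and 9 lower.

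Other genes of lipid metabolism were read from lists that hold none of the 31. For genotype, 0 of 9 other sterol genes measured, 0 of 19 other fatty acid and glycerolipid genes and 0 of 12 sterol efflux genes passed in either medium. Nearest were Hsd17b12, a reductase of fatty acid elongation, at 0.92 ± 0.24 with EGF (limma, adjusted p = 0.153) and 0.58 ± 0.24 without it, and Soat1, which esterifies cholesterol, at 0.33 ± 0.15 and 0.31 ± 0.15. For EGF within a genotype the counts were also 0 of 9, 0 of 19 and 0 of 12. In the average over genotypes without a block, Acsl4, an acyl-CoA synthetase, rose (0.64 ± 0.15, adjusted p = 0.0317), as did Mbtps2, a protease that releases SREBP (0.39 ± 0.10, adjusted p = 0.0452). Elovl5, an elongase of polyunsaturated fatty acids, fell (-0.35 ± 0.08, adjusted p = 0.0318), as did Apoe, the lipoprotein of sterol export (-2.0 ± 0.47, adjusted p = 0.0301), and Cyp7b1, an oxysterol hydroxylase (-1.0 ± 0.25, adjusted p = 0.0362). That is 1 of 9, 2 of 19 and 2 of 12 genes, beside 3.91% of all genes called in that fit (679 of 17364).

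Markers of some other neural cell types moved with the same groups. Of 11 oligodendrocyte and myelin markers measured, 10 were lower in Cic-/- without EGF and 7 passed limma's threshold, beside 0.553% of all genes. They were led by Enpp6 (-3.95 ± 0.21, limma, adjusted p = 2.96e-07) and Mag (-2.57 ± 0.26, adjusted p = 0.000208). In Cic+/+, 10 of 11 were lower with EGF than without it and 7 passed, beside 0.898% of all genes. Enpp6 was also the single gene of all tested whose EGF effect differed between genotypes (3.50 ± 0.29, adjusted p = 0.000147). The mean level of the list was 7.40 to 7.73 in Cic+/+ without EGF, 6.05 to 6.28 in Cic+/+ with EGF, 5.85 to 6.06 in Cic-/- without EGF and 5.66 to 6.00 in Cic-/- with EGF. Astrocyte markers lay at 9.43 to 9.87 and 9.43 to 9.89 without EGF and at 8.25 to 8.76 and 8.56 to 9.12 with EGF, in Cic+/+ and Cic-/- in turn. All 8 were lower with EGF in Cic+/+, and 3 of them passed. Oligodendrocyte progenitor markers lay at 10.18 to 10.54 and 9.57 to 10.33 without EGF and at 9.68 to 10.11 and 8.85 to 9.13 with EGF, in the same order. The mean levels of the progenitor and astrocyte lists were thus lower with EGF in both genotypes. In Cic+/+ the progenitor genes did not share this. Of 7, 4 were below 0 and 3 above, with a median change of -0.044 and a lowest of -2.71. In Cic-/- all 7 progenitor genes were below 0, with a median of -0.40. Neuroblast and neuron markers lay at 7.75 to 7.97 in Cic+/+ and 8.08 to 8.21 in Cic-/- without EGF. With EGF they lay at 7.63 to 7.82 and 7.61 to 7.68. Without EGF, 6 of 8 were higher in Cic-/- and 2 lower, and 1 passed as higher, beside 0.553% of all genes. Beyond the correlations given above, the part of all these markers in the lipid gene values was not tested.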

How the data were processed

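The deposited values are log2 probeset levels made by the authors with RMA, per the submitters' processing notes. The RMA version and the build are not stated in the sources used here. Of 269751 probesets, 233753 name 1 gene and entered the gene values, as the median per array, while 5106 naming several genes and 30892 naming none were left out. Of 23152 symbols, 20875 were in RefSeq (GRCm38.p6), 2189 were updated through synonyms and 88 were kept. Genes whose mean fell in the lowest 25% (below 4.40) were dropped, which left 17364. limma 3.58.1 in R 4.3.3 (data.table, release 1.17.8) was fitted with 4 group means over 14 arrays and no block, and p was adjusted by Benjamini-Hochberg over all 17364 genes. The number of arrays limits the precision.

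The members and lists were chosen with earlier results of these data known. All 31 members are named. From each companion list up to 4 passing genes, or the 2 nearest, were eligible, and the 3 members of smallest p in each comparison are printed by array; others printed by array were chosen after their values were seen. Clones pair the arrays, since a clone is 1 animal: its 2 arrays departed together from their group means, with r from 0.156 to 0.616, higher than with any other clone. Alternatives were the mean or brightest probeset, other dim filters, a trended robust prior, centring, quantile normalization, a random or a fixed block for clone, only the arrays compared, and each clone left out. The averaged EGF effect, and the fixed block with the trended prior, were added after seeing the data. Motifs were searched and figures drawn in Python 3.11.15 (pandas 2.3.3, matplotlib 3.10.9). The fit was tested on simulated data.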

Additional observations from a re-analysis of the deposited data

Results flagged for a closer look

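In the check of groups of 4 for an array far from the others, 62 groups of member levels gave 1 such array and 31 sets of EGF differences gave 2, and chance alone marks about 1 in 20 groups. Scd2 in Cic+/+ without EGF was highest in clone 2, at 13.31, with the nearest array at 13.19. The Fdps difference between media in Cic+/+ was highest in clone 4, at 0.74, with the nearest at 0.40. The Fads2 difference in Cic+/+ was lowest in clone 2, at -0.28, with the nearest at -0.15. Mvk moved one way in every Cic+/+ clone and the opposite way in every Cic-/- clone, with a mean difference between genotypes of -0.56, and limma's test of that difference gave an adjusted p of 1. The probesets of Mvk went against its median in Cic-/-, where 10 of 15 were higher with EGF.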

How the results depend on the processing

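In the 5 planned comparisons, the count of members passing was 0 under every alternative except the block with a trended prior, given next, and no median change of the members moved by more than the spread between clones. With the replicate block, fixed or random, 0 members passed in the planned comparisons, although the calls over all genes for EGF in Cic+/+ went from 156 to 969 and 897 and in Cic-/- from 33 to 519 and 361. With the fixed replicate block and the trended prior together, 1 member passed for EGF in Cic+/+ (Fdps, 1386 calls over all genes, and 770 in Cic-/-). For the averaged EGF effect, 0 members passed without a block, 0 with the random block (smallest adjusted p 0.0543), 1 with the fixed replicate block and 6 with the block and trended prior; leaving out each clone kept the count at 0, with 142 (without clone 6) to 788 calls over all genes against 679. Calls over all genes ran from 18 (without clone 2) to 81 (mean of probesets) with EGF against 55, from 44 (only the arrays compared) to 170 (mean of probesets) without EGF against 96, and from 0 to 8 for the difference in EGF effect against 1. For EGF they were as low as 17 in Cic+/+ (without clone 2) and 0 in Cic-/- (without clone 5 or 6). Over the alternatives the median change of the members ran from -0.15 to 0.02 for genotype with EGF, -0.060 to 0.094 for genotype without EGF and -0.056 to 0.127 for EGF in Cic-/-, so all 3 took both signs; it ran from 0.054 to 0.157 for EGF in Cic+/+, -0.119 to -0.007 for the difference in EGF effect and 0.031 to 0.128 for the averaged effect.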
